A study of Mus musculus with 20 samples.

Results

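The transcriptomes of cultured mouse myotubes in which muscle-specific kinase (MuSK) was activated by either of 2 routes were compared, a bivalent antibody against the natural ligand agrin. The comparison used 8 of the 20 libraries of the study, 4 treated with the antibody 13-3B5 and 4 treated with agrin, chosen by treatment and paired by the replicate number in their titles. C2C12 is a line of mouse muscle precursors whose cells fuse into myotubes when serum is lowered; the cultures had 5 days of differentiation and 16 h of treatment. The 13-3B5 group received 7.7 nM of 13-3B5 as human IgG4, described in the labels as activating MuSK, and no added agrin. The agrin group, called Agrin b12, was given neural agrin at 0.1 nM and, at 7.7 nM, b12, a human IgG4 that serves as negative control. Both groups therefore carried the same concentration of human IgG4, and they differed in the antibody and in the presence of agrin. The control group with b12 alone is shown beside the 8 libraries, and the other 2 groups, agrin with 13-3B5xb12 or 11-3F6xb12, entered only the estimate of the spread between replicates. The comparison has 1 cell line, 1 concentration of each agent and 1 time, the cultures had no nerve, and what same-numbered libraries share is not stated in the labels. P-values therefore measure the spread between these libraries.

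MuSK, a receptor tyrosine kinase, sits in the postsynaptic membrane of muscle. Neural agrin, released by the motor nerve, binds the co-receptor Lrp4, which then activates MuSK; the cytoplasmic adaptor Dok7 is needed for full kinase activity, and the scaffold rapsyn (Rapsn) gathers acetylcholine receptors into clusters. A bivalent antibody can bring MuSK molecules together without Lrp4 or agrin. Signalling downstream of MuSK is best known for rearranging proteins already at the membrane, and for keeping synaptic genes active in the nuclei beneath the synapse.

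Total counts were 21890197 to 22674974 per library with 13-3B5 and 21784854 to 22643160 with agrin, and from 17089 to 18138 genes had counts in a library. Mitochondrially encoded RNA held 29.6% to 37.2% of the counts with 13-3B5 and 27.9% to 34.4% with agrin. Most of it was the ribosomal RNA mt-Rnr2, with 27.0% to 33.9% of the counts with 13-3B5 and 25.4% to 31.3% with agrin. The labelled cell type was checked by its markers. All 10 myotube markers were tested, and their summed level was 11481 to 12284 CPM (counts scaled to a common library total) with 13-3B5 and 10876 to 12649 CPM with agrin, so the groups overlapped. The 6 myoblast or reserve cell markers summed to 600.1 to 631 CPM with 13-3B5 and 578 to 624 CPM with agrin. For other cell types only the markers that passed the filter on low counts were summed. Those were 2 of 6 endothelial markers, at most 1.07 CPM in any of the 8 libraries, and 1 of 7 leukocyte markers, at most 0.916 CPM. The 3 of 7 neuron or Schwann cell markers summed to at most 4.275 CPM, and the 1 of 6 adipocyte markers reached at most 7.06 CPM. Agrin b12 replicate 3 held 553 counts from 13 of the 14 hepatocyte markers in the table. Each of the other 7 libraries held 2 to 12 counts. Agrin b12 replicate 3 was also the only one of the 8 in which the deviation from the mean profile rose with exon length.

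No gene passed the test between the antibody and agrin when all libraries set the spread. Of 14605 genes tested with edgeR's quasi-likelihood test, 0 were called at an adjusted p under 0.05 (0%), and the smallest adjusted p was 1.00. At an unadjusted p under 0.05 there were 349 genes (2.39%), of which 179 were higher with 13-3B5 and 170 were lower. DESeq2's Wald test also called 0 genes, with 409 at an unadjusted p under 0.05, and limma voom called 0 with 587. The 4 values with 13-3B5 lay wholly above the 4 values with agrin for 170 genes (1.16%), and wholly below them for 178 genes (1.22%). The median log2 fold change of all genes tested was 0.00; here and below, a positive value means a higher level with 13-3B5.

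The width of the interval depended on the level of the gene. The 95% interval of the log2 fold change lay wholly within 1.5-fold in either direction for 8951 genes, or 61.3% of those tested, and within 2-fold for 75.6%. Among the 1057 genes with a mean of 128 CPM or more, 97.9% had an interval within 1.5-fold, and among the 3596 genes from 32 to 128 CPM it was 98.3%. The share was 90.1% from 8 to 32 CPM and 18.9% from 1 to 8 CPM. Of the 2441 genes under 1 CPM, 0% had such an interval, and their median SE was 0.80 on the log2 scale.

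**Figure D1:**
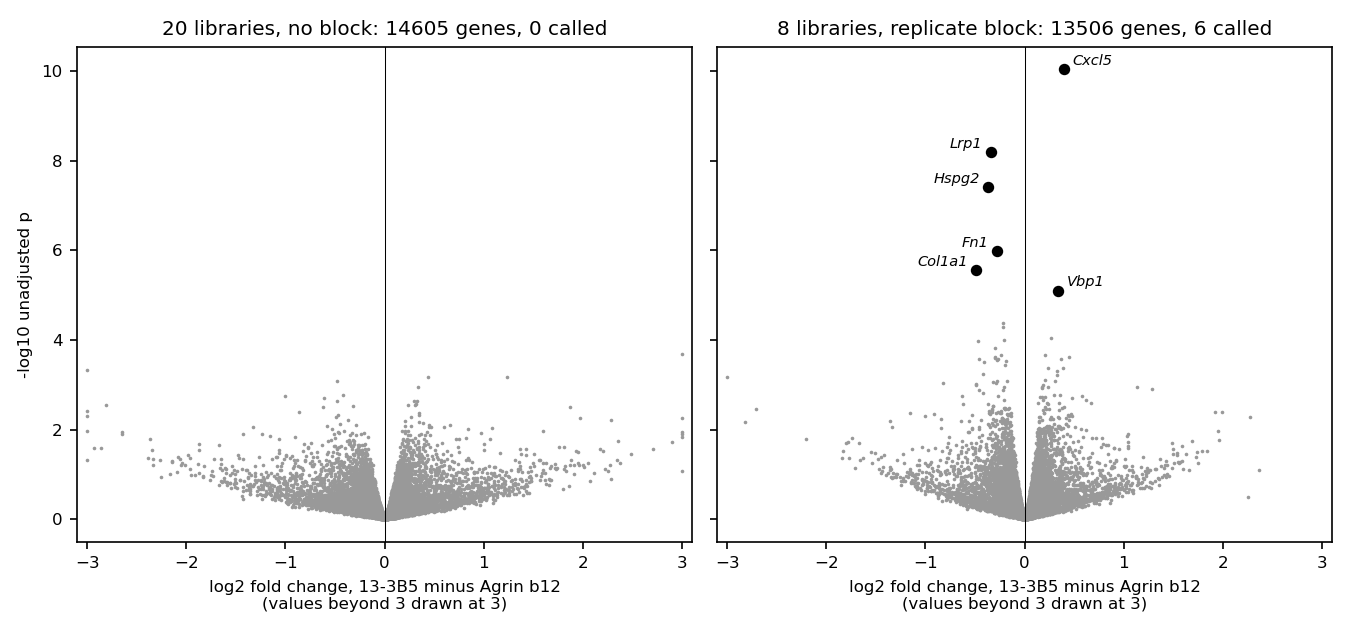
Each point is a gene, with the log2 fold change (13-3B5 minus Agrin b12) on the horizontal axis and the −log10 of the unadjusted p on the vertical axis; the left panel is the fit of 20 libraries without a block, and the right panel is the fit of the 8 libraries with the replicate number as a block. On the left 0 of 14605 genes are called, and on the right 6 of 13506 genes, drawn in black and named, stand apart from the rest.

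The count changed when pairing and the choice of libraries were changed together. With the replicate number as a block in the fit of all 20 libraries, 0 genes were called and 440 had an unadjusted p under 0.05. In a fit of only the 8 libraries without the block, 0 were called and 404 had an unadjusted p under 0.05. With the block in the fit of 8 libraries, 13506 genes were tested and 6 were called (0.0444%). Higher with 13-3B5 were Cxcl5 and Vbp1, and lower were Lrp1, Hspg2, Fn1 and Col1a1. At an unadjusted p under 0.05 this fit held 353 genes higher (2.61%) and 402 genes lower (2.98%) with 13-3B5. It left 3 residual degrees of freedom before information was shared across genes, against 15 in the fit of all libraries without the block. All 6 differences had the same direction in 4 of 4 pairs. An exact sign-flip test of 4 pairs of 1 gene cannot go below p = 0.125, so the 6 calls rest on the spread shared across genes.

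Cxcl5 encodes a chemokine that attracts neutrophils (ENSMUSG00000029371, chr5:90759360-90761624). In replicates 1 to 4 its level was 469, 372, 677 and 625 CPM with 13-3B5, and 338, 289, 553 and 455 CPM with agrin. The control libraries held 348, 290.2, 559 and 529 CPM. The groups overlapped, because replicates 3 and 4 were high in all 3 groups, yet the 13-3B5 library was the highest of the 3 at each number. The fold within pairs was 1.39, 1.29, 1.22 and 1.37. Over 20 libraries the log2 fold change was 0.39 ± 0.33 (SE) without the block and 0.40 ± 0.18 (SE) with it. It was 0.40 ± 0.049 (SE) in the blocked fit of 8 libraries, where the adjusted p was 1.2e-06 by edgeR. As the log2 ratio of group mean CPM, 13-3B5 lay 0.31 above the control and agrin lay at -0.08 from it.

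Vbp1 encodes a prefoldin subunit, part of a chaperone that hands newly made actin and tubulin to the folding machinery (ENSMUSG00000031197, chrX:75514299-75534942). Its level was 84.5, 74.1, 66.3 and 73.9 CPM with 13-3B5 and 63.5, 61.2, 55.7 and 55.5 CPM with agrin, and these groups did not overlap. The control libraries, at 74.8, 60.3, 69.4 and 69.04 CPM, reached into both. Over 20 libraries Vbp1 differed by 0.34 ± 0.09 (SE) on the log2 scale without the block and 0.34 ± 0.09 (SE) with it. The blocked fit of 8 libraries gave 0.34 ± 0.068 (SE), at an adjusted p of 0.018 by edgeR.

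Lrp1 encodes a large endocytic receptor of the family to which Lrp4 also belongs (ENSMUSG00000040249, chr10:127538161-127621148). It stood at 386, 354, 443 and 469 CPM with 13-3B5, against 488, 419, 615 and 580.3 CPM with agrin. Each 13-3B5 library was below its agrin partner, although replicates 3 and 4 with 13-3B5 lay above agrin replicate 2. The log2 fold change over 20 libraries was -0.35 ± 0.19 (SE) without the block and -0.34 ± 0.19 (SE) with it. It was -0.34 ± 0.049 (SE) in the blocked fit of 8 libraries, at an adjusted p of 4.2e-05 by edgeR.

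Hspg2 encodes perlecan, the basement membrane proteoglycan that anchors acetylcholinesterase at the synapse (ENSMUSG00000028763, chr4:137468769-137570630). Its level was 106, 94.2, 115 and 113 CPM with 13-3B5 and 146, 115, 149 and 142 CPM with agrin. The highest 13-3B5 library and the lowest agrin library were almost level, and the groups did not overlap. Its log2 fold change over 20 libraries was -0.37 ± 0.12 (SE) without the block and -0.37 ± 0.14 (SE) with it. The blocked fit of 8 libraries gave -0.37 ± 0.057 (SE), at an adjusted p of 1.8e-04 by edgeR.

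Fn1 encodes fibronectin, a fibrillar glycoprotein of the matrix (ENSMUSG00000026193, chr1:71585520-71653200). It was counted at 1065, 1103, 1133 and 1030 CPM with 13-3B5, and at 1370.4, 1296, 1530 and 1092 CPM with agrin. The agrin libraries spread widely, and replicate 4 was close to its 13-3B5 partner. Over 20 libraries Fn1 had a log2 fold change of -0.29 ± 0.19 (SE) without the block and -0.28 ± 0.18 (SE) with it. In the blocked fit of 8 libraries it was -0.28 ± 0.050 (SE), at an adjusted p of 0.0034 by edgeR.

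Col1a1 encodes the main chain of type I collagen (ENSMUSG00000001506, chr11:94936224-94953042). Its level was 27.9, 28.5, 25.7 and 21.5 CPM with 13-3B5, and 45.7, 40.8, 35.6 and 25.4 CPM with agrin. The folds within pairs 1 to 4 were 0.61, 0.698, 0.722 and 0.848, and agrin replicate 4 fell among the 13-3B5 values. The log2 fold change over 20 libraries was -0.51 ± 0.39 (SE) without the block and -0.48 ± 0.27 (SE) with it. The blocked fit of 8 libraries gave -0.49 ± 0.093 (SE), at an adjusted p of 0.0074 by edgeR.

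For the 4 lower genes the mean of the control lay between 13-3B5 and agrin. Control replicate 2 stood above every 13-3B5 and agrin library for all 4 of them. For Lrp1 the control libraries held 365, 621, 499 and 408 CPM. For Hspg2 they held 114, 153, 125 and 103 CPM, and for Fn1 they held 1192, 1771, 1163 and 998 CPM. Their Col1a1 values were 33.4, 67.6, 17.5 and 21.9 CPM, a wider range than that of both other groups together. As the log2 ratio of group mean CPM to that of the control, Hspg2 lay at -0.21 with 13-3B5 and 0.16 with agrin. Lrp1 lay at -0.20 and 0.15. Fn1 lay at -0.24 with 13-3B5 and 0.045 with agrin, and Col1a1 lay at -0.44 and 0.070. For these 2 genes agrin was thus near the control mean, which the high control replicate 2 raised. These differences share the control libraries.

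**Figure D2:**
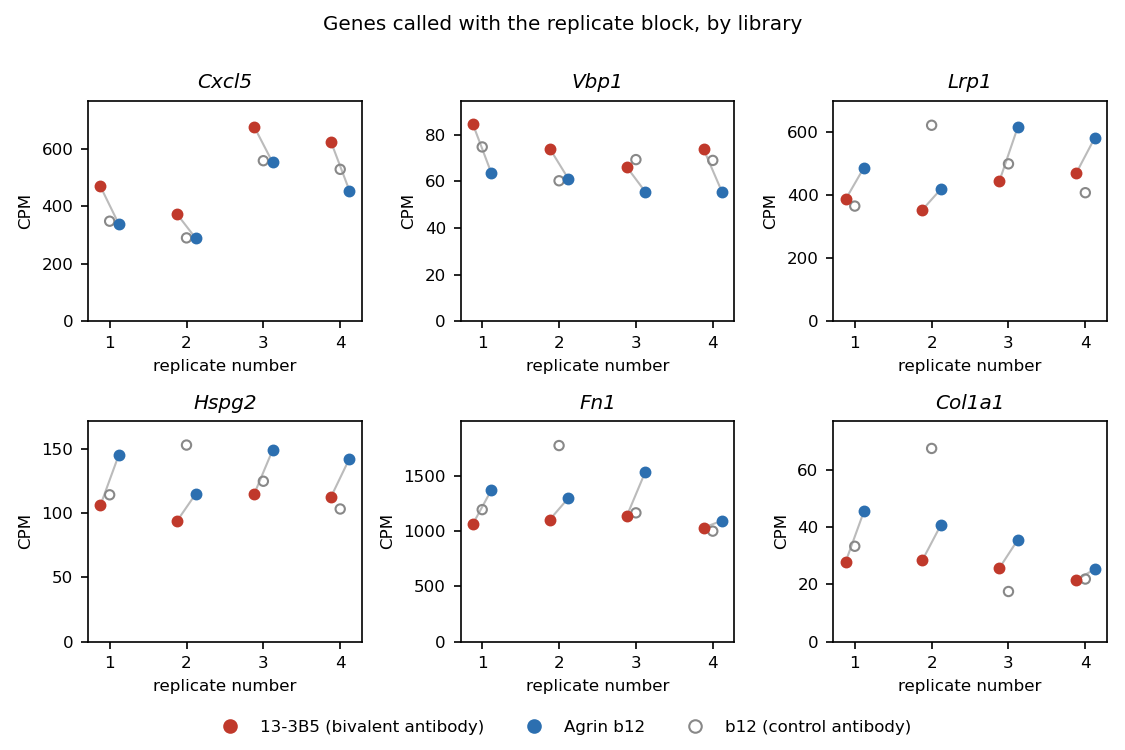
Levels in CPM, by replicate number, of the 6 genes called in the paired fit of 8 libraries; filled points are 13-3B5 and Agrin b12 libraries joined by a line within each pair, and open points are control libraries. In all 4 pairs the 13-3B5 point is above its agrin partner for Cxcl5 and Vbp1 and below it for Lrp1, Hspg2, Fn1 and Col1a1.

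Cxcl5 and Lrp1 were called with any 1 replicate number left out, and the other 4 calls were lost without replicate 1. Without replicate 1 the blocked fit of the 2 groups called 3 genes, Cxcl5, Lrp1 and the pseudogene Vdac3-ps1, which is named here after its values were seen. The log2 fold changes of the 4 lost genes were then 0.31 for Vbp1, -0.34 for Hspg2, -0.25 for Fn1 and -0.41 for Col1a1. Without replicate 4 it called 11 genes, among them 5 of the 6, with Vbp1 at a log2 fold change of 0.31 and an adjusted p of 0.16 by edgeR. Without replicate 2 it called 14 genes and without replicate 3 it called 11, and all 6 were among them each time. DESeq2's Wald test on the same 8 paired libraries called 13 genes, of which Cxcl5, Hspg2 and Lrp1 were among the 6, and gave no adjusted p for Col1a1 and Vbp1. In each of the 33 settings tried, the 6 genes had the same direction. All 33 refit these libraries or some of them, and the fit that called the genes is among them. The unchanged direction is therefore no separate evidence.

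Exon length, the bases covered by all annotated exons of a gene together, moved with the sign of the difference. Among the 8813 genes at 8 CPM or more with a length, the rank correlation of the log2 fold change with length was -0.15, across genes that are not independent. The shortest 20% of these genes, up to 2692 bases, had a median log2 fold change of 0.02, and the longest 20%, from 8201 bases, had one of -0.02. This came mostly from pair 3, where the median log2 ratio went from 0.10 in the shortest 20% to -0.09 in the longest. In pair 2 it went the other way, from -0.05 to 0.02. In the blocked fit of 8 libraries, the longest 20% held 29 genes higher and 147 lower at an unadjusted p under 0.05, and the shortest held 84 higher and 33 lower. The 4 genes called lower with 13-3B5 have exon lengths of 6563 to 17717 bases, and Cxcl5 and Vbp1 have 1863 and 2132 bases. A correction for the length trend of each library left 0 genes called in the fit of 20 libraries, with or without the block. With the same correction in the blocked fit of 8 libraries, 10 genes were called, and all 6 were among them. Their log2 fold changes were then 0.38 for Cxcl5, 0.32 for Vbp1, -0.29 for Lrp1, -0.33 for Hspg2, -0.25 for Fn1 and -0.48 for Col1a1.

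**Figure D3:**
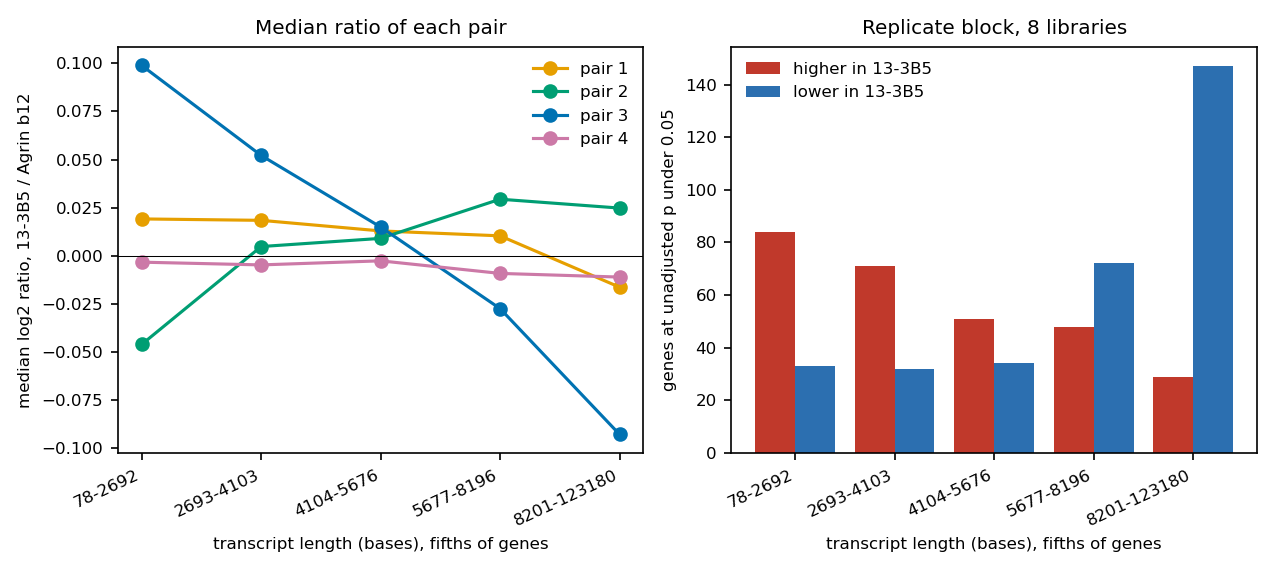
The left panel shows the median log2 ratio of 13-3B5 to Agrin b12 in each pair over 5 equal groups of genes. The groups are ordered by exon length in bases, which the axis labels name transcript length. The right panel counts genes at an unadjusted p under 0.05 in the blocked fit of 8 libraries, higher (red) and lower (blue) with 13-3B5. Pair 3 falls from 0.10 to -0.09, and the longest group has 29 genes higher and 147 lower.

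The genes of the receptor complex differed by less than 1.5-fold between the antibody and agrin. All 27 listed genes of the MuSK complex and its adaptors were tested, 0 were called in either fit, and their median log2 fold change was -0.01, beside 0.00 over all genes. All 27 had a 95% interval within 1.5-fold. The share was 61.3% over all genes, but 90.1% from 8 to 32 CPM and 98.3% from 32 to 128 CPM. The median SE of the list was 0.095, beside 0.093 for all genes from 32 to 128 CPM. Musk, the kinase, was at 48.4, 49.3, 62.3 and 54.6 CPM with 13-3B5 and 43.9, 50.2, 54.6 and 51.2 CPM with agrin, so the groups overlapped, with a log2 fold change of 0.10 ± 0.10 (SE). Lrp4, the agrin receptor, was at 181, 194, 228 and 213 CPM and 191, 199, 241 and 223 CPM. It was lower with 13-3B5 in 4 of 4 pairs by a small margin, at -0.06 ± 0.08 (SE), and the groups overlapped.

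Agrn, the muscle's own agrin gene, was at 13.02, 14.1, 17.04 and 20.1 CPM with 13-3B5 and 14.996, 16.9, 19.8 and 13.9 CPM with agrin. It was lower with the antibody in pairs 1 to 3 and higher in pair 4, with a log2 fold change of -0.03 ± 0.15 (SE) whose sign changed in 11 of the alternatives. Dok7 was at 19.3, 20.5, 20.4 and 20.6 CPM and 16.1, 19.6, 20.8 and 24.98 CPM, with a log2 fold change of -0.01 ± 0.12 (SE). Rapsn was at 82.4, 91.9, 77.4 and 73.9 CPM and 86.2, 84.7, 72.1 and 77.02 CPM, with a log2 fold change of 0.02 ± 0.08 (SE). For Dok7 and Rapsn the agrin libraries lay on both sides of their partners, and the sign of the mean difference changed in 9 and 6 alternatives.

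Among the kinases and adaptors behind the receptor, the smallest p-values without the block belonged to Ptpn11 and Cdc42, and in the blocked fit of 8 libraries the smallest belonged to Macf1, at an adjusted p of 0.58 by edgeR. Cdc42, a small GTPase of the actin cytoskeleton, was at 349.9, 332, 346 and 344 CPM with 13-3B5 and 315, 326, 320.4 and 311 CPM with agrin. The groups did not overlap, and the log2 fold change was 0.11 ± 0.07 (SE). Ptpn11, the tyrosine phosphatase Shp2, was at 128 to 147 CPM with 13-3B5 and 146 to 167 CPM with agrin, at -0.15 ± 0.09 (SE). Macf1, a linker of microtubules and actin and the member with the highest CPM, was at 1974 to 2541 CPM and 2046 to 3054 CPM, at -0.15 ± 0.12 (SE).

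Acetylcholine receptor subunits were mostly at higher levels with 13-3B5, and none passed the test. All 5 subunit genes were tested and 0 were called in either fit, and their median log2 fold change was 0.12, beside 0.00 over all genes. The sign of that median was the same in each of 32 alternatives. These refit the same libraries or some of them, so the unchanged sign is no separate evidence, here or for the lists below. The summed level of the 5 was 942 to 968 CPM with 13-3B5 and 843 to 910 CPM with agrin, so the sums did not overlap. Most of each sum was Chrna1, at a mean of 590 CPM over the 8 libraries, so the sums largely repeat its values. The control libraries ranged from 110 to 148 CPM for Chrnd and from 65.04 to 136 CPM for Chrng. Chrna1, Chrnb1 and Chrnd were higher with 13-3B5 in 4 of 4 pairs, while over all genes tested 993 of 14605 were.

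The stretch of 150 bases before the start of 3 of these genes is shown because its motifs are those through which myogenic factors (E-box) and ETS factors (N-box) are known to act on synaptic genes. Capitals mark E-boxes (CANNTG, the same letters on both strands) and N-boxes (CCGGAA on either strand); the motifs do not overlap here. The sequences are RefSeq promoters of GRCm38.p6, read 5′ to 3′ on the strand of the gene, for Chrna1 at chr2:73580339-73580488 (minus strand), Chrne at chr11:70619195-70619344 (minus strand) and Musk at chr4:58285812-58285961 (plus strand).
Chrna1: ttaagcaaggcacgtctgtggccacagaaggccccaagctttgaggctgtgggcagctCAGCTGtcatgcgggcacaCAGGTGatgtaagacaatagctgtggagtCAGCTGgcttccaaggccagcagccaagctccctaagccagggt
Chrne: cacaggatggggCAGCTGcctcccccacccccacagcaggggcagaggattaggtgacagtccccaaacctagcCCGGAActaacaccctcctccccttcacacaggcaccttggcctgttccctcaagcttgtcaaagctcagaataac
Musk: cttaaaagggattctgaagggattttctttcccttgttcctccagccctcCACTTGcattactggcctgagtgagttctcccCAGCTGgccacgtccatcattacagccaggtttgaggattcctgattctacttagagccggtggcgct
The window of Chrna1 holds 3 E-boxes and no N-box, that of Chrne holds 1 of each, and that of Musk holds 2 E-boxes. Of 32851 RefSeq promoter windows of 150 bases, 47.7% hold an E-box and 9.23% hold an N-box.

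Chrna1, the alpha subunit that forms the main part of the acetylcholine binding site, with 3 E-boxes in its window, was at 602, 605, 632 and 621 CPM with 13-3B5. It was at 543, 572, 600.4 and 544 CPM with agrin, so every 13-3B5 library was above every agrin library. The control libraries, at 601, 601, 589 and 564 CPM, all lay below the lowest 13-3B5 library. The log2 fold change was 0.12 ± 0.06 (SE), and the adjusted p in the blocked fit of 8 libraries was 0.73 by edgeR.

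Chrnb1, the beta subunit through which rapsyn binds the receptor, was at 119.8, 136, 116 and 121 CPM with 13-3B5 and 107, 116, 103 and 107 CPM with agrin. Only 13-3B5 replicate 3 lay below an agrin library, replicate 2. Its log2 fold change of 0.19 ± 0.07 (SE) was the one of the 5 with an unadjusted p under 0.05, and the blocked fit gave an adjusted p of 0.49 by edgeR. The control libraries held 128, 124, 117 and 116 CPM.

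Chrnd, the delta subunit, was at 151, 142, 120.1 and 116 CPM with 13-3B5 and 137, 130.1, 114 and 112 CPM with agrin. Both groups were high in replicates 1 and 2, and each 13-3B5 library was above its partner, at a log2 fold change of 0.11 ± 0.11 (SE). Chrng, the subunit of the embryonic receptor, was at 79.5, 79.98, 77.98 and 81.5 CPM and 78.3, 87.8, 82.8 and 78.1 CPM, with a log2 fold change of -0.04 ± 0.17 (SE). Chrne, the subunit of the adult receptor, was at 2.79, 4.14, 2.33 and 3.34 CPM and 2.54, 4.18, 1.86 and 2.21 CPM, at 0.23 ± 0.31 (SE). With 44 to 91 counts per library, Chrne was the one subunit gene whose 95% interval reached beyond 1.5-fold.

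**Figure D4:**
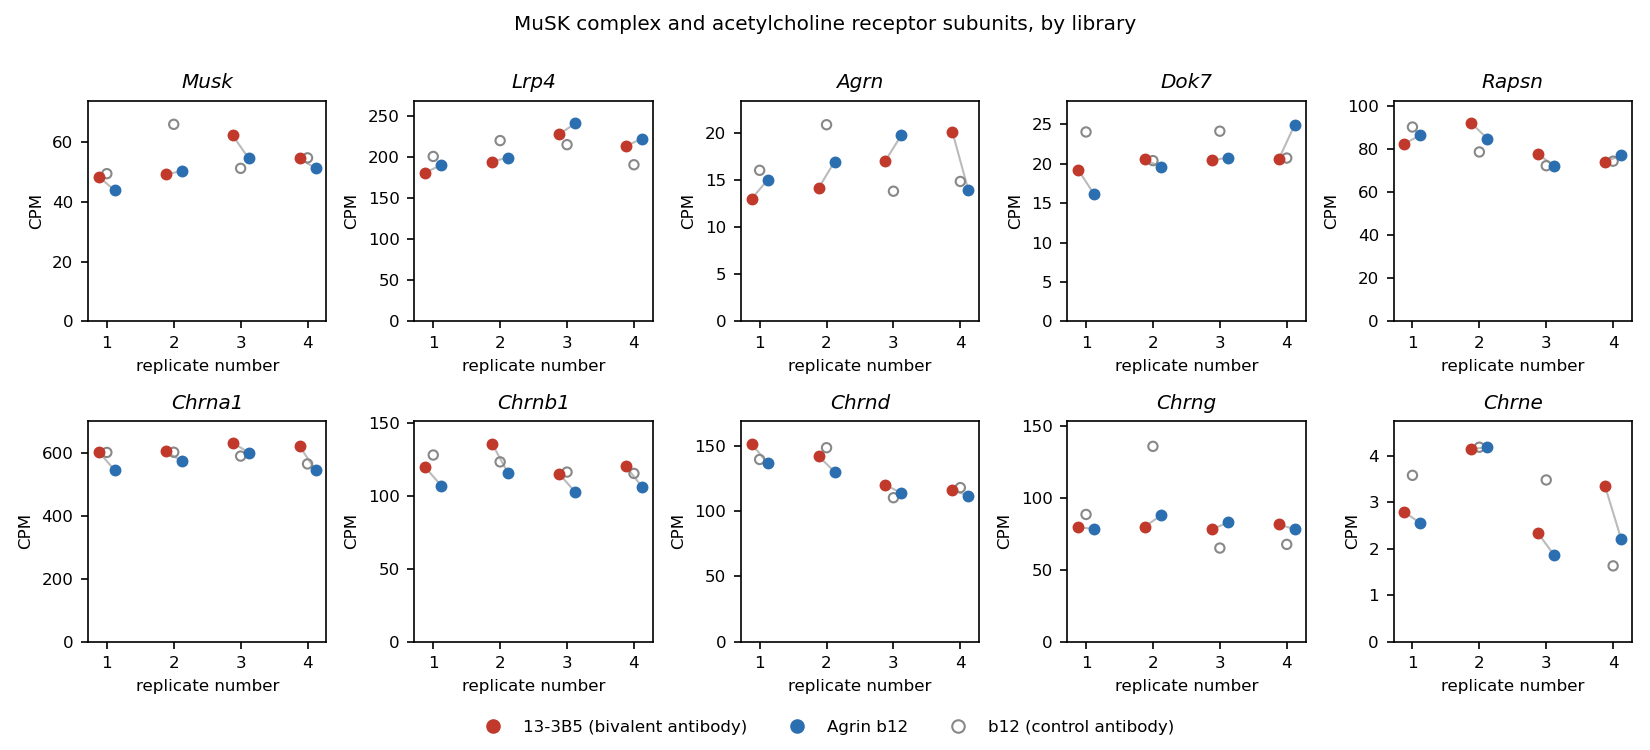
Levels in CPM of 5 genes of the MuSK complex (top) and the 5 acetylcholine receptor subunits (bottom), by replicate number; filled points are 13-3B5 and Agrin b12 libraries joined within each pair, and open points are control libraries. Chrna1, Chrnb1 and Chrnd are above their agrin partners in 4 of 4 pairs, and the 4 Chrna1 values with 13-3B5 do not overlap with those with agrin.

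Of the other genes of the synapse, Hspg2 was the one called. Of 25 tested genes for synaptic matrix, ErbB receptors and ETS factors, 0 were called without the block and Hspg2 was called lower in the blocked fit of 8 libraries, and the median log2 fold change was -0.05. In the blocked fit of 8 libraries, 5 were lower and 1 higher at an unadjusted p under 0.05, where 2.98% of all genes were lower and 2.61% higher. The one higher was Gabpa, the ETS factor that binds the N-box, at 97.4, 99.02, 96.2 and 103 CPM with 13-3B5 and 94.7, 81.5, 86.7 and 91.3 CPM with agrin. Its groups did not overlap, and the log2 fold change was 0.16 ± 0.07 (SE). Prkar1a, a regulatory subunit of protein kinase A, had the highest CPM of the list, at 1027 to 1148 CPM and 973 to 1161 CPM, and a log2 fold change of 0.06 ± 0.07 (SE).

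Immediate early genes respond quickly to growth factor signals. Of 20 tested, 0 were called in either fit, 11 had a 95% interval within 1.5-fold, and 14 had a negative log2 fold change, with a median of -0.11 that changed sign in 3 of 32 alternatives. Fos, a component of the AP-1 factor, was at 1.97, 2.32, 3.12 and 2.48 CPM with 13-3B5 and 4.41, 3.19, 3.92 and 3.83 CPM with agrin. Its groups did not overlap, at a log2 fold change of -0.63 ± 0.26 (SE), from 41 to 97 counts per library. Ier3, a survival gene, was at 24.1, 25.5, 20.5 and 24.3 CPM and 17.995, 18.8, 19.1 and 20.6 CPM. It was higher with 13-3B5 in 4 of 4 pairs, at 0.30 ± 0.13 (SE), and agrin replicate 4 lay just above 13-3B5 replicate 3. Junb, another AP-1 component, was at 282 to 342 CPM with 13-3B5 and 309 to 379 CPM with agrin, at -0.10 ± 0.09 (SE).

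The 11 feedback inhibitors of ERK signalling gave 0 calls in either fit and a median log2 fold change of 0.10. Dusp6, a phosphatase that switches ERK off, was at 34.9, 40.7, 38.7 and 38.8 CPM with 13-3B5 and 38.2, 29.2, 29.6 and 40.3 CPM with agrin. The antibody libraries were higher in pairs 2 and 3 and lower in pairs 1 and 4, at 0.16 ± 0.11 (SE). Spred2, a membrane protein that blocks the activation of Raf, was at 8.78 to 12.1 CPM and 10.9 to 12.5 CPM, at -0.24 ± 0.14 (SE), and its relative Spred1 was at 61.6 to 70.3 CPM and 58.8 to 68.9 CPM, at 0.06 ± 0.08 (SE).

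MuSK can also bind BMP ligands and takes part in Wnt signalling, and no listed gene of either pathway was called. Of 19 BMP receptors, SMADs and targets tested, 0 were called in either fit, and the median log2 fold change was -0.01. Smad7, an inhibitory SMAD, was at 8.02, 11.6, 11.9 and 10.1 CPM with 13-3B5 and 11.997, 12.6, 12.2 and 13.9 CPM with agrin. The groups did not overlap, at -0.29 ± 0.16 (SE). The other inhibitory SMAD, Smad6, was at 4.21 to 6.05 CPM and 5.398 to 6.33 CPM, at -0.18 ± 0.19 (SE). The secreted BMP antagonist Grem1 was at 261, 246, 252 and 329 CPM and 238, 225, 242 and 382 CPM, with a log2 fold change of 0.00 ± 0.19 (SE), and replicate 4 was the highest in both groups.

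Of 24 Wnt ligands, receptors and targets tested, 0 were called in either fit and 18 had a negative log2 fold change. Their median of -0.13 kept its sign in each of 32 alternatives, all refits of the same libraries or some of them. Their median SE was 0.29, so that 10 of the 24 had an interval within 1.5-fold. Fzd1, a Frizzled receptor, was at 85.7, 91.7, 82.98 and 88.6 CPM with 13-3B5 and 91.7, 98.6, 93.1 and 104 CPM with agrin, at a log2 fold change of -0.15 ± 0.07 (SE). Its groups were adjacent without overlap. Tcf7, a transcription factor of the canonical pathway, was at 4.18, 2.64, 2.28 and 2.27 CPM and 4.09, 4.37, 4.64 and 3.997 CPM, at -0.59 ± 0.28 (SE). Ctnnb1, beta-catenin, was at 563 to 601 CPM and 542 to 611 CPM, at 0.04 ± 0.06 (SE).

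Matrix genes had mostly negative differences, which means lower levels with 13-3B5. Of 27 small proteoglycan and matrix genes tested, 0 were called without the block, and Fn1 and Col1a1 were called lower with 13-3B5 in the blocked fit of 8 libraries. In that fit 12 of 27 were lower and 0 higher at an unadjusted p under 0.05, where 2.98% of all genes were lower and 2.61% higher. Over the list 23 of 27 log2 fold changes were negative, and 9 genes were lower in 4 of 4 pairs (942 of 14605 over all genes). The median of -0.12 kept its sign in each of 32 alternatives, all refits of the same libraries or some of them. Ccn2, the matricellular protein CTGF, was at 45.9, 46.6, 38.8 and 44.7 CPM with 13-3B5 and 64.5, 51.2, 49.6 and 52.3 CPM with agrin, without overlap, at -0.31 ± 0.20 (SE). Col1a2, the other chain of type I collagen, was at 414, 432, 462 and 449 CPM and 461, 498, 512 and 469 CPM, at -0.14 ± 0.09 (SE). Col3a1, type III collagen, was at 3508 to 3710.4 CPM and 3545 to 4023 CPM, at -0.09 ± 0.08 (SE). The median exon length of these 27 genes is 4778 bases, beside 4054 over all genes tested.

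Fibroblast markers overlap this list, and 6 of the 7 were tested. Their summed level was 3557 to 3767 CPM with 13-3B5 and 3597 to 4092 CPM with agrin, most of it from Col3a1, and 4 of the 6 log2 fold changes were negative, with a median of -0.19. The sums overlapped between groups. In bulk RNA, fewer cells of a type and less RNA per cell cannot be told apart. The part of such cells in the matrix values was not tested.

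Myogenic regulators set the differentiation state of the myotubes. Of 17 tested, 0 were called in either fit and 14 had a 95% interval within 1.5-fold, with a median log2 fold change of 0.02. Myog, the factor of terminal muscle differentiation, was at 597, 624, 669 and 598 CPM with 13-3B5 and 525, 598, 614 and 546 CPM with agrin. Each 13-3B5 library was above its partner, the groups overlapped, and the log2 fold change was 0.12 ± 0.08 (SE). Hdac5, a repressor of MEF2 factors, was at 53.4 to 63.7 CPM and 47.1 to 60.6 CPM, at 0.12 ± 0.08 (SE).

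All 39 sarcomere and excitation-contraction coupling genes were tested, 0 were called in either fit, and 29 had a 95% interval within 1.5-fold. Their median log2 fold change was 0.00, and its sign changed in 12 of 32 alternatives. Ttn, titin, was at 4775, 4436, 4599 and 3495 CPM with 13-3B5 and 4837, 4868, 5573 and 4315 CPM with agrin. It was lower with 13-3B5 in 4 of 4 pairs, at -0.18 ± 0.18 (SE), and its exon length of 116820 bases is among the longest. Myh8, the perinatal myosin, was at 19.3 to 30.6 CPM and 20.2 to 26.01 CPM, at 0.17 ± 0.13 (SE). Myh2, a fast myosin of adult fibres, was at 7.59 to 12.4 CPM and 10.6 to 15.2 CPM, at -0.25 ± 0.18 (SE).

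Denervation and atrophy genes mark muscle that has lost its nerve. Of 14 tested, 0 were called in either fit, 10 had a 95% interval within 1.5-fold, and the median log2 fold change was 0.04. Fbxo30, a ubiquitin ligase of atrophy, was at 46.8, 45.5, 41.4 and 40.5 CPM with 13-3B5 and 35.9, 41.9, 40.6 and 38.4 CPM with agrin, at 0.15 ± 0.08 (SE), higher in 4 of 4 pairs with overlap. Myl12a, a regulatory light chain of non-muscle myosin, was at 179 to 197 CPM and 169 to 180 CPM, at 0.10 ± 0.08 (SE). Gadd45a, a stress gene raised in denervated muscle, was at 166 to 238 CPM and 163 to 218 CPM, at 0.07 ± 0.13 (SE).

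Cxcl5 was the one called gene among cytokines and acute-phase genes. Of 17 tested, 0 were called without the block, and Cxcl5 was the 1 called in the blocked fit of 8 libraries. In the blocked fit of 8 libraries 3 were higher and 0 lower at an unadjusted p under 0.05, where 2.61% of all genes were higher and 2.98% lower. Of the 17, 5 were higher in 4 of 4 pairs (993 of 14605 over all genes). The median log2 fold change was 0.11, with a sign that changed in 3 of 32 alternatives, and 6 of the 17 had an interval within 1.5-fold. Ccl2, a chemokine for monocytes, was at 91.7, 91.6, 107 and 93.2 CPM with 13-3B5 and 87.8, 79.1, 85.5 and 83.4 CPM with agrin. The groups did not overlap and the control libraries, at 85.4, 69.04, 97.6 and 77.96 CPM, overlapped with both. Its log2 fold change was 0.19 ± 0.15 (SE), with an adjusted p of 0.58 in the blocked fit by edgeR.

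Interferon-stimulated genes and Fc receptors were listed because the agents are antibodies. Of 16 interferon-stimulated genes tested, 0 were called in either fit, and the median log2 fold change was -0.05. Gbp2, an interferon-induced GTPase, was at 8.78 to 15.4 CPM with 13-3B5 and 7.16 to 11.5 CPM with agrin, at 0.24 ± 0.21 (SE), and B2m, the light chain of MHC class I, was at 231 to 283 CPM and 241 to 276 CPM, at 0.07 ± 0.11 (SE). Of 4 Fc receptor genes tested, 0 were called in either fit. Fcgrt, the receptor that recycles IgG inside cells, was at 91.7, 88.8, 79.4 and 80.1 CPM and 91.02, 93.9, 74.6 and 78.4 CPM, at 0.01 ± 0.09 (SE). Trim21, a cytosolic antibody receptor, was at 4.28 to 6.004 CPM and 3.62 to 6.29 CPM, at 0.22 ± 0.25 (SE), and Fcgr4, an activating IgG receptor of myeloid cells, was at 2.61 to 3.69 CPM and 1.18 to 3.23 CPM, at 0.51 ± 0.31 (SE).

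Cholesterol synthesis genes were mostly within 1.5-fold. All 21 were tested, 0 were called in either fit, 20 had a 95% interval within 1.5-fold, and the median log2 fold change was 0.04. Msmo1, a sterol demethylating oxidase, was at 91.7, 92.2, 89.04 and 87.5 CPM with 13-3B5 and 73.2, 77.7, 79.9 and 68.5 CPM with agrin. Every 13-3B5 library was above every agrin library, at 0.27 ± 0.09 (SE), and the blocked fit gave an adjusted p of 0.13 by edgeR. With the length correction Msmo1 was among the 10 genes called in the blocked fit of 8 libraries, and 0 genes were called with it in the blocked fit of 20. Hmgcs1, an early enzyme of the pathway, was at 134 to 174 CPM and 113 to 169.8 CPM, at 0.16 ± 0.10 (SE), and the lanosterol demethylase gene Cyp51 was at 140 to 157 CPM and 120.3 to 178 CPM, at 0.02 ± 0.12 (SE).

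Cell cycle genes report on dividing cells among the myotubes. All 25 were tested, 0 were called in either fit, and 18 had a negative log2 fold change. The median of -0.11 kept its sign in each of 32 alternatives, all refits of the same libraries or some of them. Plk1, a mitotic kinase, was at 0.769, 1.23, 0.615 and 0.385 CPM with 13-3B5 and 1.4996, 2.58, 2.404 and 1.08 CPM with agrin. The groups overlapped between 13-3B5 replicate 2 and agrin replicate 4, the log2 fold change was -1.33 ± 0.47 (SE), and the libraries held 9 to 57 counts. Mcm2, a subunit of the replication helicase, was at 16.7 to 28.1 CPM and 16.8 to 20.6 CPM, at 0.24 ± 0.14 (SE). Pcna, the sliding clamp of replication, was lower with 13-3B5 in 4 of 4 pairs, at 77.9, 82.2, 89.9 and 84.2 CPM and 89.5, 92.5, 92.8 and 85.4 CPM, with a log2 fold change of -0.11 ± 0.08 (SE).

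The unfolded protein response gave no call and narrow intervals. All 20 of its genes were tested, 0 were called in either fit, 18 had an interval within 1.5-fold, and the median was 0.00. Hspa5, the main chaperone of the endoplasmic reticulum, was at 925 to 964 CPM with 13-3B5 and 912 to 1009 CPM with agrin, at -0.03 ± 0.07 (SE). Dnajb9, a co-chaperone, was at 24.4 to 28.2 CPM and 26.1 to 30.7 CPM, at -0.14 ± 0.10 (SE), and Trib3, a pseudokinase of the stress response, was at 2.16 to 4.01 CPM and 2.73 to 5.87 CPM, at -0.38 ± 0.30 (SE).

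Of 9 mitochondrially encoded protein genes tested, 0 were called in either fit, 8 had a positive log2 fold change, and the median was 0.10. The most highly counted, mt-Co1, a core subunit of cytochrome oxidase, was at 8002, 6736, 6244 and 6333 CPM with 13-3B5 and 7044, 6637, 5887 and 6052 CPM with agrin. It was higher in 4 of 4 pairs with overlap, at 0.09 ± 0.10 (SE). The complex I subunit mt-Nd2 was at 10.5, 9.47, 17.2 and 9.21 CPM and 7.32, 5.77, 7.42 and 10.03 CPM, at 0.60 ± 0.29 (SE), and mt-Nd4 was at 8.18 to 13.3 CPM and 12.8 to 14.97 CPM, at -0.30 ± 0.17 (SE).

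**Figure D5:**
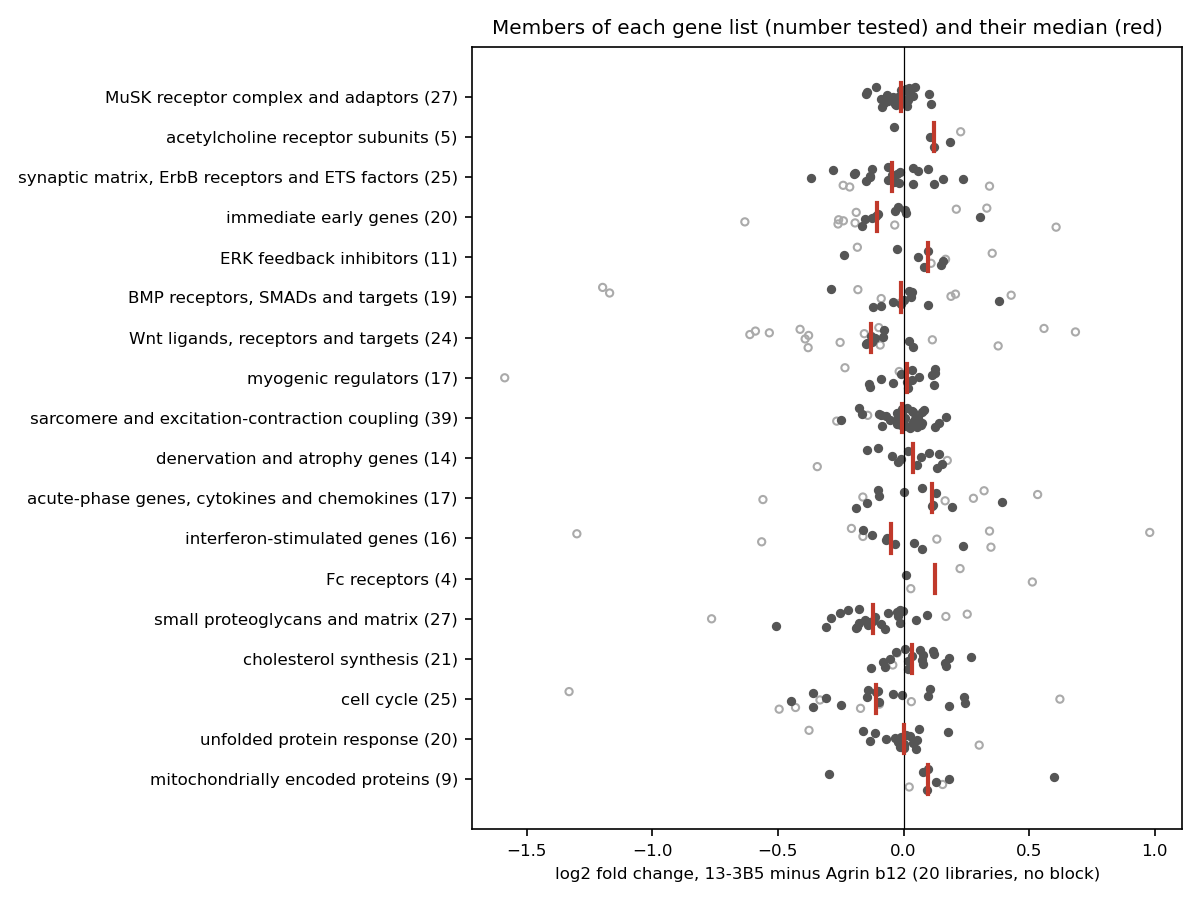
Log2 fold change (13-3B5 minus Agrin b12) of each tested member of the 18 gene lists, in the fit of 20 libraries without a block, with the median of each list in red and the number tested in parentheses; filled points have a mean of at least 8 CPM and open points less. Medians lie between -0.13 for Wnt genes and 0.13 for Fc receptors, and the 27 genes of the MuSK complex lie within a narrow band around -0.01.

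The genes with the smallest p-values among those whose groups did not overlap were 10 in each direction, and 0 of them were called without the block. They are the extremes of the 170 genes higher and 178 genes lower. Ell2, an elongation factor of RNA polymerase II, was at 21.7, 21.6, 25.99 and 22.4 CPM with 13-3B5 and 18.3, 13.5, 18.01 and 17.8 CPM with agrin. Its log2 fold change was 0.44 ± 0.12 (SE), and its adjusted p in the blocked fit was 0.17 by edgeR. Vhl, the ubiquitin ligase subunit that marks hypoxia-inducible factors for degradation, was at 35.9, 33.3, 37.5 and 37.6 CPM and 26.99, 29.2, 30.4 and 31.1 CPM, at 0.29 ± 0.09 (SE). Dad1, a subunit of the oligosaccharyl transferase, was at 33.2, 36.1, 43.2 and 37.3 CPM and 28.4, 31.2, 30.2 and 29.4 CPM, at 0.33 ± 0.10 (SE).

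The largest fold change of the 20 belonged to 1700037C18Rik, an uncharacterised gene, at 2.83, 2.96, 2.46 and 3.43 CPM with 13-3B5 and 1.95, 0.986, 0.96999 and 1.04 CPM with agrin. Its log2 fold change was 1.24 ± 0.32 (SE), from 21 to 80 counts per library, and agrin replicate 1 stood above the other 3 agrin libraries. The remaining genes higher with 13-3B5 were Rmc1 at a log2 fold change of 0.32, Bmt2 at 0.30, Tmco3 at 0.24 and Zfp229 at 0.34, beside Vbp1 and Msmo1. Vbp1, Msmo1 and Ell2 apart, the adjusted p of these genes in the blocked fit was from 0.25 for Rmc1 to 0.58 for Zfp229 by edgeR.

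Lower with 13-3B5, Kmt2d, a histone H3 lysine 4 methyltransferase, was at 15.4, 17.2, 19.01 and 19.7 CPM with 13-3B5 and 22.9, 19.9, 32.01 and 24.6 CPM with agrin. Its log2 fold change was -0.48 ± 0.13 (SE), with an adjusted p of 0.13 in the blocked fit by edgeR. Boc, a cell surface receptor that promotes myoblast differentiation, was at 6.39, 4.74, 4.04 and 5.61 CPM and 9.72, 7.04, 7.89 and 7.08 CPM, at -0.61 ± 0.18 (SE). Ptpn14, a tyrosine phosphatase of the Hippo pathway, was at 15.2, 17.6, 15.5 and 16.1 CPM and 22.4, 22.3, 22.4 and 18.98 CPM, at -0.42 ± 0.12 (SE). In all 3 the highest 13-3B5 value lay below the lowest agrin value, by a margin smaller than the spread within the agrin group.

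Fuom, a fucose mutarotase, had the largest difference among the 10, at 3.65, 3.96, 2.85 and 2.78 CPM with 13-3B5 and 5.23, 9.48, 4.51 and 4.996 CPM with agrin, and a log2 fold change of -0.87 ± 0.28 (SE). Agrin replicate 2 stood above the other 3. The remaining genes lower with 13-3B5 were Mcm9 at a log2 fold change of -0.62, Nsrp1 at -0.48, Ralgapa2 at -0.47, Zer1 at -0.45 and Mgat3 at -0.32, beside Hspg2.

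Whole profiles set the size of these differences against that between replicates. Over 11149 genes, the root mean square difference of log2 CPM between a 13-3B5 library and the agrin library of the same number was 0.275 to 0.335, with a mean of 0.301. Libraries of the same treatment within replicates 1 and 2, or within 3 and 4, differed by 0.305 on average. Those of different treatment and different number within these sets differed by 0.306 on average. Between replicates 1 or 2 and replicates 3 or 4 the mean distance was 0.359 within a treatment and 0.360 across treatments. On average a myotube library was thus about as far from its partner under the other activator as from its own treatment's replicate within the same set. The split of replicates 1 and 2 from 3 and 4 went with a larger distance than the activator did. The median SD of log2 CPM within a group was 0.14 with 13-3B5 and 0.17 with agrin.

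Within each of these pairs of replicate numbers, the comparison gave the same count of calls. Using replicates 1 and 2 of all treatments, edgeR called 0 genes with 366 at an unadjusted p under 0.05, and using replicates 3 and 4 it called 0 with 774. With this split as a covariate it called 0 with 468. The 6 genes called in the blocked fit of 8 libraries were chosen in these same libraries, with 1 direction in all 4 pairs. Their shared direction on both sides of the split follows from that choice, so only the sizes are given. On the log2 scale, Cxcl5 was at 0.42 and 0.37, Vbp1 at 0.34 and 0.34, and Lrp1 at -0.30 and -0.39. Hspg2 was at -0.38 and -0.36, Fn1 at -0.30 and -0.28, and Col1a1 at -0.62 and -0.37.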

How the data were processed

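Total RNA of C2C12 myotubes was sequenced as 150-base read pairs on a NovaSeq instrument from ribosome-depleted, strand-marking libraries, per the labels' protocols. The authors deposited whole-number read counts per Ensembl gene for 26722 genes and 20 libraries, not normalized. Trim Galore 0.6.6, cutadapt 2.10, STAR 2.7.6a, HTSeq 0.12.4, DESeq2 1.32.0 and the GRCm38 build are named in the submitters' processing notes. Which annotation release and strand setting were used, and how multi-mapping reads were treated, is not given in the sources used here, so counts of overlapping genes, antisense genes and near-identical copies are uncertain. Gene positions and exons are those of GENCODE M21 for GRCm38, in which 26667 of the IDs were found. Exon length is the number of bases covered by the exons of all annotated transcripts of a gene together. It can exceed the length of any single transcript. Promoter sequences are from RefSeq.

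Models were fitted with edgeR 4.0.16 under R 4.3.3. The filter was filterByExpr (minimum count 10, minimum total 15), libraries were scaled by TMM, and a robust quasi-likelihood model with 5 treatments was fitted to all 20 libraries. The contrast was two-sided, with Benjamini-Hochberg adjustment over all genes tested, called at an adjusted p under 0.05. The SE is the log2 fold change divided by the root of F, and 95% intervals use its t quantile. CPM values are counts over TMM-scaled library totals. Total counts of the 8 libraries were 21784854 to 22674974, and the SE covers counting error and replicate spread together. The edgeR fits of 20 libraries, with and without the block, and the blocked fit of 8 were tested on simulated counts. Alternatives used DESeq2 1.42.0, limma 3.58.1, other filters, scalings and sets of libraries, and the replicate number as a block.

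Replicate numbers come from the sample titles, where each treatment has replicates 1 to 4. Over 11149 genes above a log2 CPM of 1, deviations from the group means correlated between same-numbered libraries of the 2 groups at 0.22 to 0.248 in all 4 pairs, so that the numbers were taken to pair the libraries. Different numbers within replicates 1 and 2, or within 3 and 4, correlated across the groups at 0.152 to 0.224. No pair of replicates agreed within sampling noise, as the chi-square per gene was at least 7.63.

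The genes and gene lists were chosen with earlier results of these data known. Among genes with a mean of at least 1 CPM, those named are the 10 in each direction with the smallest p among genes whose groups did not overlap, the MuSK complex and acetylcholine receptor genes of the report, the highest and the 2 smallest-p members of each list, and those called with the block. Of these, 1 gene is not reported here.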

Additional observations from a re-analysis of the deposited data

Results flagged for a closer look

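Each sentence below gives a library whose value stood far from the other 3 of its group by Dixon's criterion, which flags about 1 in 20 groups by chance. Of 170 groups of 4 libraries examined, 13 held such a library. With 13-3B5, replicate 3 was high for Ccl2, at 107 CPM against 91.6 to 93.2. It was high for Macf1, at 2541 CPM against 1974 to 2069, and for mt-Nd2, at 17.2 CPM against 9.21 to 10.5. Replicate 1 of 13-3B5 was low for Dok7, at 19.3 CPM against 20.4 to 20.6, and high for Nsrp1, at 12.9 CPM against 9.46 to 10.1. With agrin, replicate 4 was high for Grem1, at 382 CPM against 225 to 242, and for B2m, at 276 CPM against 241 to 245. The same library was low for Ptpn14, at 19.0 CPM against 22.3 to 22.4. Agrin replicate 2 was high for Fuom, at 9.48 CPM against 4.51 to 5.23. It was low for Ell2, at 13.5 CPM against 17.8 to 18.3, and for Nsrp1, at 13.8 CPM against 14.97 to 15.03. Agrin replicate 1 was high for 1700037C18Rik, at 1.95 CPM against 0.97 to 1.04.

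Agrin replicate 3 held 553 counts of hepatocyte markers, against 2 to 9 in the other agrin libraries and 1 to 17 in the control libraries, and no hepatocyte marker passed the filter on low counts.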

How the results depend on the processing

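The count of genes called without the replicate block was 0 in the fits with other size factors, filters of at least 10 counts, only the 8 libraries, no mitochondrially encoded genes, voom, DESeq2 or any 1 of the 8 libraries left out. With no filter on low counts it was 7, with 1098 genes at an unadjusted p under 0.05, and the 7 were A430110C17Rik, Alb, Apob, Col1a1, Cxcl5, Trf and Vdac3-ps1, named here after their values were seen. Alb is a hepatocyte marker, and 553 counts of such markers were in Agrin b12 replicate 3. With the replicate block of all 20 libraries the count was 0, also without each replicate number. The paired fit of 8 libraries gave 6 calls and 755 genes at an unadjusted p under 0.05. Alternatives added after seeing the data were this fit without each number, its DESeq2 test and the length corrections. Without replicates 1, 2, 3 and 4 it gave 3, 14, 11 and 11 calls, with 558, 891, 875 and 765 at an unadjusted p under 0.05. DESeq2 gave 13 and 590, and the length correction gave 10 and 808. With that correction the fit of 20 libraries gave 0 calls, with or without the block. The count at an unadjusted p under 0.05 was also beyond 1.5 times the reported 349 with voom (587), in replicates 3 and 4 (774), and with the block of 20 libraries without replicate 2 (604); it was 329 to 468 without single libraries. The number of genes with an interval within 1.5-fold was 8451 to 8632 without single libraries. Over 80 named genes, 2557 values under alternatives kept direction and side of the threshold in 2455 cases, passed the threshold in 41 cases for 9 genes, and turned direction in 61 cases for 11 genes; the cause was not tested. The reported log2 fold changes of these 11 genes lie from -0.04 to 0.17. Agrn, -0.028 as reported, was 0.0046 with voom, 0.14 in replicates 3 and 4, -0.15 to 0.074 without single libraries, 0.022, 0.041 and 0.039 without replicates 1, 2 and 3 with the replicate block of 20 libraries and 0.019, 0.040 and 0.025 without replicates 1, 2 and 3 with the block of 8 libraries. Fcgrt, 0.0088 as reported, was -0.0033 with voom, -0.039 in replicates 1 and 2, -0.0031 with the length correction, -0.0021 with that and the replicate block, -0.0023 with both in the 8 libraries, -0.048 to 0.064 without single libraries, -0.016 without replicate 3 with the replicate block of 20 libraries and -0.017 without replicate 3 with the block of 8 libraries. Grem1, 0.0012 as reported, was -0.10 in replicates 3 and 4, -0.0033 with the length correction, -0.10 to 0.21 without single libraries, -0.016 and -0.013 without replicates 1 and 2 with the replicate block of 20 libraries and -0.012 and -0.0093 without replicates 1 and 2 with the block of 8 libraries. Dok7, -0.013 as reported, was 0.037 with voom, 0.15 in replicates 1 and 2, 0.0010 with DESeq2 and the block in the 8 libraries, -0.11 to 0.10 without single libraries, 0.00051 and 0.094 without replicates 3 and 4 with the replicate block of 20 libraries and 0.0052 and 0.094 without replicates 3 and 4 with the block of 8 libraries. Cyp51, 0.016 as reported, was -0.11 in replicates 1 and 2, -0.069 to 0.12 without single libraries, -0.052 without replicate 4 with the replicate block of 20 libraries and -0.054 without replicate 4 with the block of 8 libraries. Rapsn, 0.025 as reported, was -0.038 to 0.069 without single libraries, -0.0077 and -0.0022 without replicates 2 and 3 with the replicate block of 20 libraries and -0.0079 and -0.0059 without replicates 2 and 3 with the block of 8 libraries. Spred1, 0.059 as reported, was -0.016 in replicates 1 and 2 and -0.0013 without replicate 4 with the block of 8 libraries. Gadd45a, 0.068 as reported, was -0.012 to 0.16 without single libraries. Ctnnb1, 0.036 as reported, was -0.016 in replicates 1 and 2. Myh8, 0.17 as reported, was -0.11 in replicates 1 and 2. Chrng, -0.036 as reported, was -0.057 to 0.00025 without single libraries. At this depth, the interval reached past 1.5-fold for most genes under 8 CPM.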
